A study of Mus musculus with 4 samples.

Results

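Here 6 genes of growth factor signalling are described by their CHD4 intervals. For signalling through the kinase ERK they are the feedback inhibitors Dusp1, Dusp6 and Spry4 and the pathway activators Mapk3 and Sos1. From a parallel arm comes the translation repressor Eif4ebp1. They were chosen by their presence in the deposited list of places where CHD4 exceeded IgG, so their having an interval, its fold and its q are given as a description and carry no test. All rows of the list that name 1 of the 6 were taken, 10 of 2066, and rows with the same start and end were joined, which left 8 intervals of 1849. Dusp6 and Sos1 had 2 intervals each and the other 4 genes 1 each. All 6 genes were found in the list and none was lost to a filter.

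The list came from CUT&Tag, in which an antibody brings a transposase to chromatin so that nearby DNA is cut and receives sequencing adapters. The samples were cells labelled spermatogonial from wild-type C57BL/6 mice, 2 with an antibody against CHD4 and 2 with a control labelled as a rabbit anti-mouse IgG that carries HRP, and the assay began with digested testes. No age, treatment or cell sorting step is given in the sources used here. CHD4 is the motor of NuRD, a complex that slides nucleosomes and removes acetyl groups from histones. The list is 1 call of CHD4 against IgG with no value for a single sample, so no error between the biological replicates can be given. A binding list measures no expression and cannot check the cell type; its intervals named 1 of 15 spermatogonial marker genes (Nanos3), 3 of 10 Sertoli cell genes and 3 of 12 genes of other testis somatic cells, shares of 6.67%, 30% and 25% beside 6.1% of all protein-coding genes.

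Growth factor receptors recruit the exchange factor SOS1, which loads Ras with GTP, and Ras then drives a kinase chain of RAF, MEK and ERK. ERK switches on genes that shut it down again: the DUSP phosphatases remove the phosphates that activate MAP kinases, and Sprouty proteins such as SPRY4 act between the receptor and RAF. In the testis this chain lies downstream of GDNF and FGF, which support the self-renewal of spermatogonial stem cells, and a parallel arm through mTOR acts on EIF4EBP1, which holds back cap-dependent translation.

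The Dusp6 promoter interval was the single member interval that contained the start of the gene it is named for, and it lies whole within a promoter sequence of the RefSeq table (GRCm38.p6, the assembly that mm10 is based on, with equal chromosome positions). It is shown beside the 250 bases before the Dusp1 start, which no interval of the list touched, to set the start regions of these phosphatase genes side by side. Both are written 5′ to 3′ on the strand of the gene. Capitals mark every match, on either strand, to a fixed set of motifs. For factors that growth factor signals act on, these were the ETS motif written as CCGGAAG, the cyclic AMP response element or CRE written as TGACGTCA, its shorter form written as TGACG, which each CRE also holds on both strands, and the AP-1 motif written as TGANTCA. For general promoter factors, they were the GC box written as GGGCGG, the CCAAT box under its own letters, the TATA box written as TATAAA, and the E box written as CACGTG.
Dusp6, chr10:99263063-99263253, plus strand: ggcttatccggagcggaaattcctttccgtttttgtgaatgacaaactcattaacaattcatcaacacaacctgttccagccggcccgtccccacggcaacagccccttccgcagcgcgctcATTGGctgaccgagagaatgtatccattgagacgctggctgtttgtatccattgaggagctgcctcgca
Dusp1, chr17:26508473-26508722, minus strand: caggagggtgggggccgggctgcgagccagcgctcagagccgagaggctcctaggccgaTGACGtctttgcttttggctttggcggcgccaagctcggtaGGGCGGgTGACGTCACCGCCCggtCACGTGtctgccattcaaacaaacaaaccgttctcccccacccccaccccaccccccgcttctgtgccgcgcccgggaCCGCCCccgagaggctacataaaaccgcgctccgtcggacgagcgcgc

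The Dusp6 interval is 191 bases long, and its RefSeq start is base 169. It held 1 motif match, to CCAAT on the opposite strand, which the same stretch of 28.3% of 32544 promoter windows also holds. Its GC content was 52.9%, against a median of 53.9% in that stretch of all windows, and it had 12 CpG, or 6.28 per 100 bases against a median of 2.62. The Dusp1 sequence, from a promoter with no interval, was richer in GC, at 68.4% against a median of 52.4%, and in CpG, at 28 or 11.2 per 100 bases against 2.4. It held 1 CRE, found in the same 250 bases of 1.55% of windows, 3 matches to the shorter CRE, 2 of them within the CRE (17.8% of windows hold any), 3 GC boxes (33% hold any) and 1 E box (6.03%). The 250 bases before the Sos1 start, which lie between the Sos1 intervals, matched none of these motifs and had a GC content of 70.4%. A CArG box, the site of serum response factor, was found in none of the 3 sequences. The ETS motif was searched only in the full form given above, so shorter forms of it were neither marked nor counted. A match is a string of letters and not a measured binding site. Promoter sequences were matched for 3 of the 6 genes.

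Dusp1 encodes a nuclear phosphatase that inactivates MAP kinases and is induced quickly by growth factors and stress. Its interval lay away from the gene, in distal intergenic sequence on chromosome 17 at 26514691 to 26515095, 6.17 kb upstream of the start the authors used, and it was 405 bp wide. The fold of CHD4 over IgG, the peak caller's own ratio at the summit with 1 added to both sides, was 4.36. Behind it stood 18 CHD4 fragments, with an exact 95% Poisson interval from 10.7 to 28.4, before any scaling. The caller scaled CHD4 down by 0.429 to the depth of IgG, where they count as 7.72 against an IgG expectation of 1. Here a fragment is a unit of the caller's coverage, recovered from the deposited fold and p. All fragment numbers below are unscaled and all IgG expectations are at IgG depth, so a ratio needs the scaled value, given after the Poisson interval. That interval covers the counting error of CHD4 only and leaves out that of IgG. No other interval lay nearer than 96.2 kb. This was one of the weakest calls of the list: its q was 0.0442, where the largest q in the list was 0.0492.

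Dusp6 encodes a cytoplasmic phosphatase with a preference for ERK. Its promoter interval had the lowest fold among the members, 3.1, and the most CHD4 fragments, 41 (29.4 to 55.6, scaled to 17.6), over an IgG expectation of 4.98. That fold exceeded 6.76% of the folds of all intervals, while the expectation exceeded 84.6% of theirs. The interval ran from 99263063 to 99263253 on chromosome 10, with its summit 120 bp before the start, and its q was 0.0253. Among the 86 summits of the list whose IgG expectation lay within 10% of this one, fragments ranged from 38 to 147 with a median of 47, so the Dusp6 promoter lay near the lower edge of what was called at that background.

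The second Dusp6 interval was the strongest by fold of the 8. It lay in intergenic sequence at 99297112 to 99297335, 31.5 kb from the start of a shorter Dusp6 transcript and 29.6 kb past the end of the RefSeq gene. Its fold was 6.29, from 27 fragments (17.8 to 39.3, scaled to 11.6) over an IgG expectation of 1, with a q of 2.45e-05. It had fewer CHD4 fragments than the promoter and a higher fold, and the Poisson intervals of the fragment numbers overlap. Against the 299 summits with an IgG expectation within 10% of its own, whose median fold was 5, its fold was higher than 80.9%. Dusp6 was the nearest protein-coding gene, and the next, Poc1b, lay 99 kb away.

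Spry4 had the widest interval of the members, 645 bp on chromosome 18 at 38601398 to 38602042, wider than 96.4% of the list. Its summits, 2 in number, had folds of 4.55 and 5.11, from 22 (13.8 to 33.3, scaled to 9.43) and 25 (16.2 to 36.9, scaled to 10.7) CHD4 fragments, both over an IgG expectation of 1.29. The q of the stronger summit was 0.00143. By the authors' annotation the interval lay 0.13 kb upstream of the Spry4 start, and by RefSeq it ended 51 bp short of the Spry4 boundary. It did not touch Spry4 and shared 426 bp with Arhgap26, whose span starts inside it. The weaker summit lay 11 bp outside the Arhgap26 boundary and the stronger 202 bp inside, and the boundary of Arhgap26 was nearer to both than that of Spry4. The deposited list gives the interval the name Spry4.

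**Figure D1:**
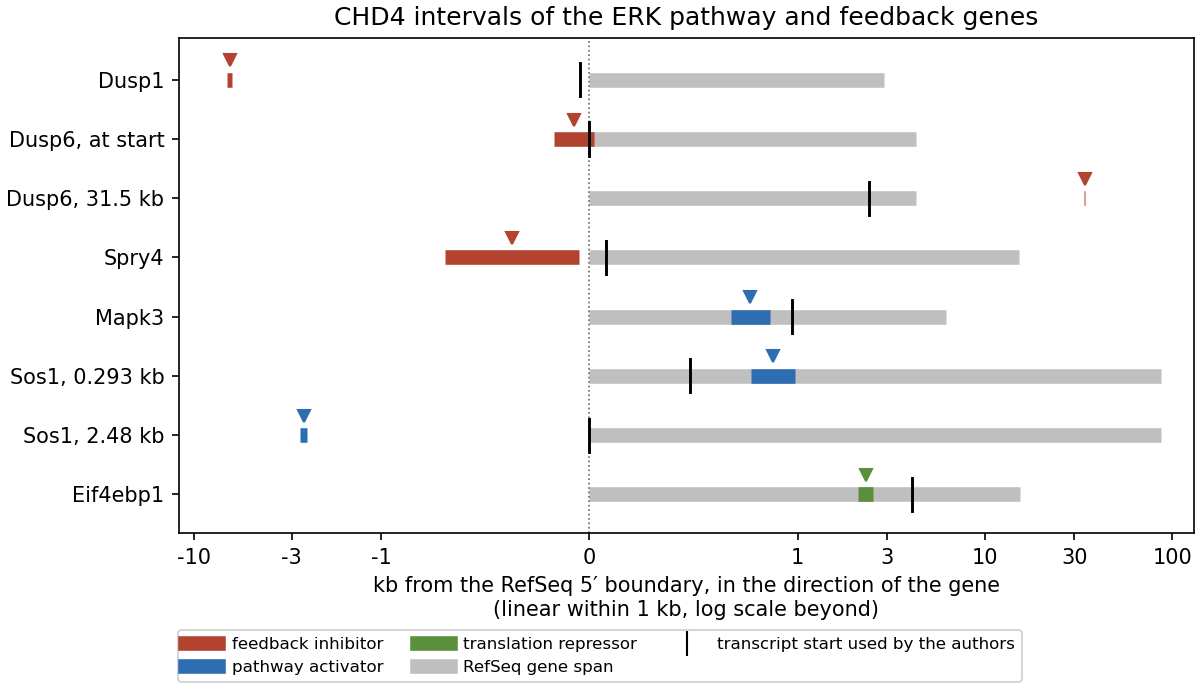
Position of each of the 8 member intervals (coloured bars, marked by a triangle) relative to the RefSeq 5′ boundary of its gene in kb, with the RefSeq span in grey and the start the authors used as a black tick; the axis is linear within 1 kb and logarithmic beyond. The Dusp6 promoter interval alone crosses the boundary of its own gene, and the Mapk3, Eif4ebp1 and nearer Sos1 intervals lie within the gene.

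Among the activators, Mapk3 encodes the kinase ERK1. Its interval on chromosome 7, from 126760304 to 126760494, was 191 bp wide and had a fold of 4.36, from 21 fragments (13 to 32.1, scaled to 9) over an IgG expectation of 1.29, with a q of 0.0086. The authors' annotation placed it at a promoter, 103 bp before the start of transcript ENSMUST00000091328.3. The RefSeq gene begins farther upstream, and by its boundary the interval lay 678 bp inside Mapk3. The table of gene spans does not tell exon from intron.

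Sos1, the Ras exchange factor, had intervals on both sides of its outer start on chromosome 17. The nearer, at 80479464 to 80479676, lay 293 bp past the start of the transcript it was assigned to and 777 bp inside the RefSeq gene. Its fold was 6, the highest among the activators, from 22 fragments (13.8 to 33.3, scaled to 9.43) over an expectation of 0.738, with a q of 0.000137. The other, at 80482934 to 80483149, lay 2.48 kb upstream and was weaker, with a fold of 4.14 from 17 fragments (9.9 to 27.2, scaled to 7.29) over an expectation of 1. Its q was 0.0442, as at Dusp1, and no summit of the list at an IgG expectation of 1 had fewer fragments. The Poisson intervals of the 2 Sos1 summits overlap.

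Eif4ebp1, which is released from its hold on the cap-binding factor when mTOR phosphorylates it, had the smallest q of the members, 9.49e-07. Its interval on chromosome 8, from 27262431 to 27262856, was 426 bp wide with 2 summits 303 bp apart. The stronger summit had a fold of 6.08 from 38 fragments (26.9 to 52.2, scaled to 16.3) over an IgG expectation of 1.85, and the weaker 4.15 from 27 (17.8 to 39.3, scaled to 11.6) over 2.03. The stronger fold was higher than 89.9% of those of the 247 summits with a similar IgG expectation, which include weaker summits of intervals. Against their own such sets, the share was 61.8% at Spry4, 26.3% at Mapk3 and 19.1% at Dusp1. It was 17.4% at the Dusp6 promoter, and 58.3% and 0.334% at the nearer and upstream Sos1 intervals. The authors placed the interval 1.56 kb upstream of a transcript start, but by the RefSeq boundary it lay 2.1 kb inside the gene.

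**Figure D2:**
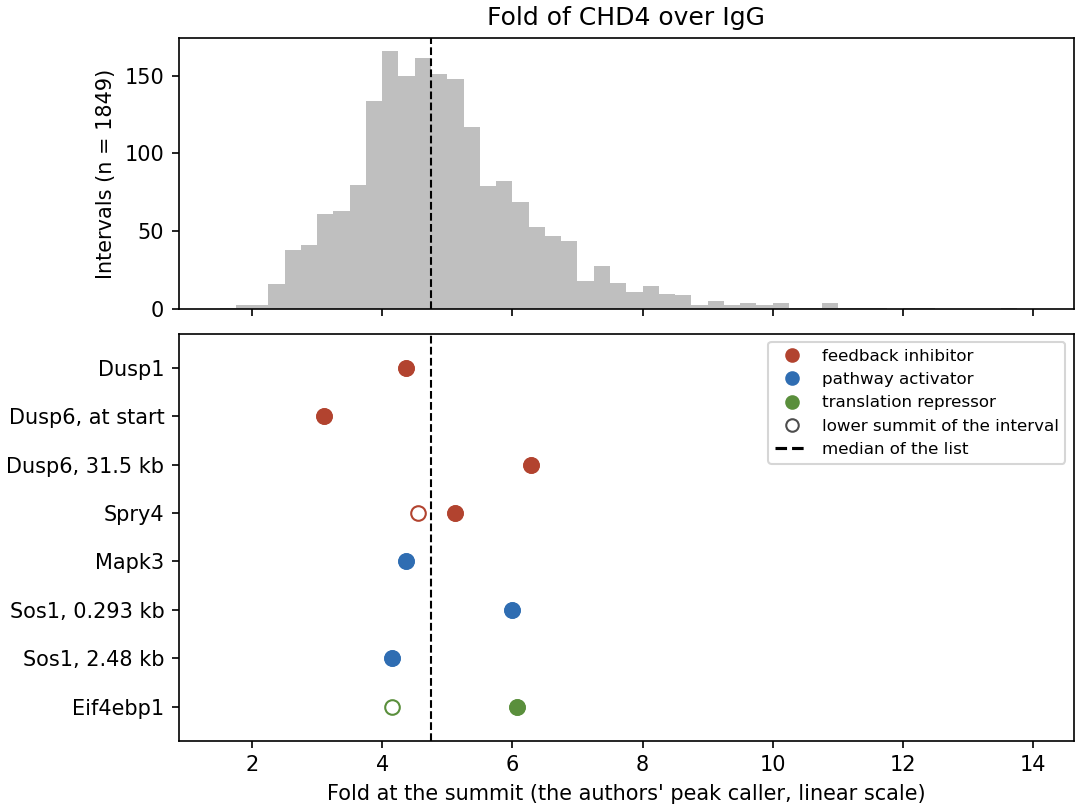
Fold of CHD4 over IgG (linear scale) for all 1849 intervals (upper panel, histogram) and for each member interval (lower panel, filled points; open points are the lower summit where an interval has 2). The members spread from 3.1 to 6.29 on both sides of the dashed median of the list, 4.76, and the colours of inhibitors and activators interleave.

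Feedback inhibitors and activators overlapped in fold, fragments, IgG expectation and width. The 4 inhibitor intervals had folds of 4.36 at Dusp1, 3.1 and 6.29 at Dusp6 and 5.11 at Spry4, with a median of 4.74. The 3 activator intervals had folds of 4.36 at Mapk3 and 6 and 4.14 at Sos1, with a median of 4.36, so that the whole activator range lay inside that of the inhibitors. The difference of the medians was 0.371, beside a spread of 1.68 (the SDs of the 2 sets combined). That spread is one of single intervals and not an error of the difference. The difference changed sign to −0.0702 with 1 value per gene, to −0.00579 without Spry4 and to −0.337 without Mapk3. No test was made, because members were chosen on this list and intervals of 1 gene share their source.

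Fragment number, background and width overlapped too. Median CHD4 fragments were 26 for the inhibitors (18 to 41) and 21 for the activators (17 to 22). Median IgG expectation was 1.15 (1 to 4.98) and 1 (0.738 to 1.29). Activator intervals were narrow, from 191 to 216 bp with a median of 213, while inhibitor intervals ran from 191 to 645 bp with a median of 314.5, and the list's median was 280. Both ranges of width begin at 191 bp, at Dusp6 and at Mapk3. Beyond 3 kb of a start lay 2 of 4 inhibitor intervals, those of Dusp1 and the far Dusp6 interval, and 0 of 3 activator intervals, beside 57.8% of the whole list; this difference was not tested.

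Over all 8 member intervals, 4 were at most 1 kb from a start, at Dusp6, Spry4, Mapk3 and Sos1, beside 34.1% of the whole list. The median fold was 4.74, close to that of the list, and 4 intervals lay above the list's median and 4 at or below it. The median width was 220 bp and the median number of fragments 23.5, against 280 bp and 27 in the list. At a q under 0.01 there were 5 of the 8, beside 77.3% of the list. The 3 that were lost were those of Dusp1, the Dusp6 promoter and the upstream interval of Sos1, so Dusp1 then had none.

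**Figure D3:**
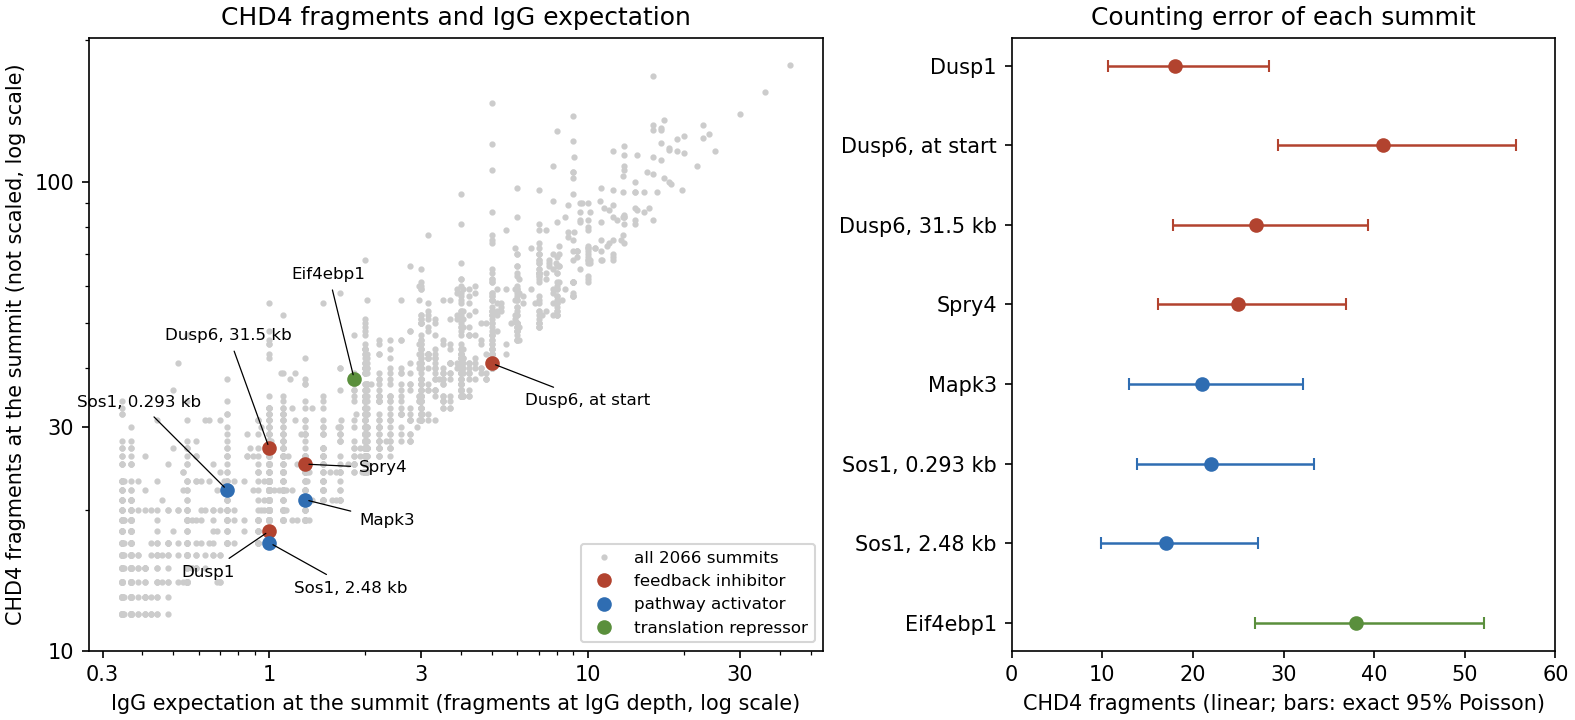
Left, unscaled CHD4 fragments against IgG expectation at IgG depth at every summit of the list (grey) and at the stronger summit of each member interval (coloured), both on log scales; right, the same member fragments on a linear scale with exact 95% Poisson intervals. Dusp1 and the upstream Sos1 interval lie on the lower edge of the called summits at an expectation of 1, and the Dusp6 promoter lies at the highest expectation of the members, 4.98.

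The rest of the pathway was read from 5 role lists of 137 genes found in the gene table, drawn up with part of these results known, so their counts are a description. The list of feedback inhibitors had 10 of 25 named, or 40%, beside 6.1% of all protein-coding genes, and 3 of those 10 are the members. Of the 22 others, 7 were named, or 31.8%: the phosphatases Dusp4, Dusp5 and Dusp10, the Sprouty-related Spred2, the receptor inhibitor Errfi1, the ubiquitin ligase Cblb and the FGF receptor antagonist Il17rd. The list does not separate its phosphatases by which MAP kinase they act on, ERK or another. Dusp4, Dusp10, Spred2 and Errfi1 had no interval within 3 kb of a start. Within 1 kb of a start were 3 of the 25, those of Dusp6, Spry4 and Cblb, or 12% beside 2.57% of all protein-coding genes; without the members 1 of 22 was left, or 4.55%.

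Dusp4 had the highest fold of all intervals in these lists, 8.96 from 34 unscaled fragments over an IgG expectation of 0.738, at 53.9 kb. Dusp10 had 3 intervals with folds from 4.11 to 5.64, at 17.4 to 91.6 kb, and Spred2 had 2 of fold 6.05 and 6.68, at 88.8 and 6.64 kb. Dusp5 also had a nearer and a farther interval, at 2.41 kb with a fold of 4.14 and at 26.1 kb with 3.57. Unlike at Dusp6, the nearer had the higher fold and did not contain the start. It was a weak call, 17 unscaled fragments over an expectation of 1, as at the upstream Sos1 interval. The authors' annotation names an interval for a transcript start near it, which by RefSeq is not always the nearest, as at Spry4. Genes also differ in how much sequence lies nearest to them. The median stretch between the neighbouring protein-coding genes was 136 kb for the feedback list and 68.6 kb for all protein-coding genes. It was 137 kb for the activator list and ran from 71 to 223 kb over the role lists. At Dusp6 the stretch was 560 kb. The part of these lengths in the counts was not tested.

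Of the activator list, 4 of 29 were named (13.8%, beside 6.1% of all protein-coding genes). All 4 had an interval within 1 kb of a start, so that share of the list was 13.8% too, beside 2.57% of all protein-coding genes. Without the members Mapk3 and Sos1, chosen for being named, 2 of 27 remained (7.41%), near the 6.1% for any interval. Those 2 also make 7.41% within 1 kb, beside 2.57%, a share that rests on 2 genes. Beside Mapk3 and Sos1 the named genes included the adaptor Gab1. The Gab1 promoter had a fold of 3.06 from 39 unscaled fragments over 4.8, beside 3.1 from 41 over 4.98 at the Dusp6 promoter. It was a call near the limit, with a −log10 q of 1.313 where the lowest in the list was 1.308. At a q under 0.01 it would be lost. A second Gab1 interval at 21.9 kb had a fold of 5.22 over 1. The difference in share between the feedback and activator lists was not tested.

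Ligands and receptors were named in 2 of 28 cases (7.14%), near the background share of 6.1%: Kitl, the ligand of KIT, at 108 kb and the receptor Igf1r in an intron, with folds of 6.5 and 4.33. Neither Gdnf, Gfra1, Ret nor an FGF receptor had an interval. ERK substrates and target genes were named in 9 of 29 cases (31%), namely Fos, Fosb, Jun, Junb, Ets1, Ets2, Elk3, Ier3 and Zfp36. Within 1 kb of a start were 4 of the 29, or 13.8% beside 2.57% of all protein-coding genes. These were Ets1, Ets2, Junb and Zfp36, with folds of 4.2, 4.84, 4.44 and 3.16. In the PI3K, mTOR and translation list 4 of 26 were named (15.4%), or 3 of 25 (12%) without the member Eif4ebp1. Eif4e, which encodes the cap-binding partner of EIF4EBP1, had a promoter interval of fold 3.05 from 35 unscaled fragments over 4.25, a weaker call than at Eif4ebp1, and Rheb and Pik3r1 had intervals at 7.43 and 111 kb. The related repressors Eif4ebp2 and Eif4ebp3 had none.

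**Figure D4:**
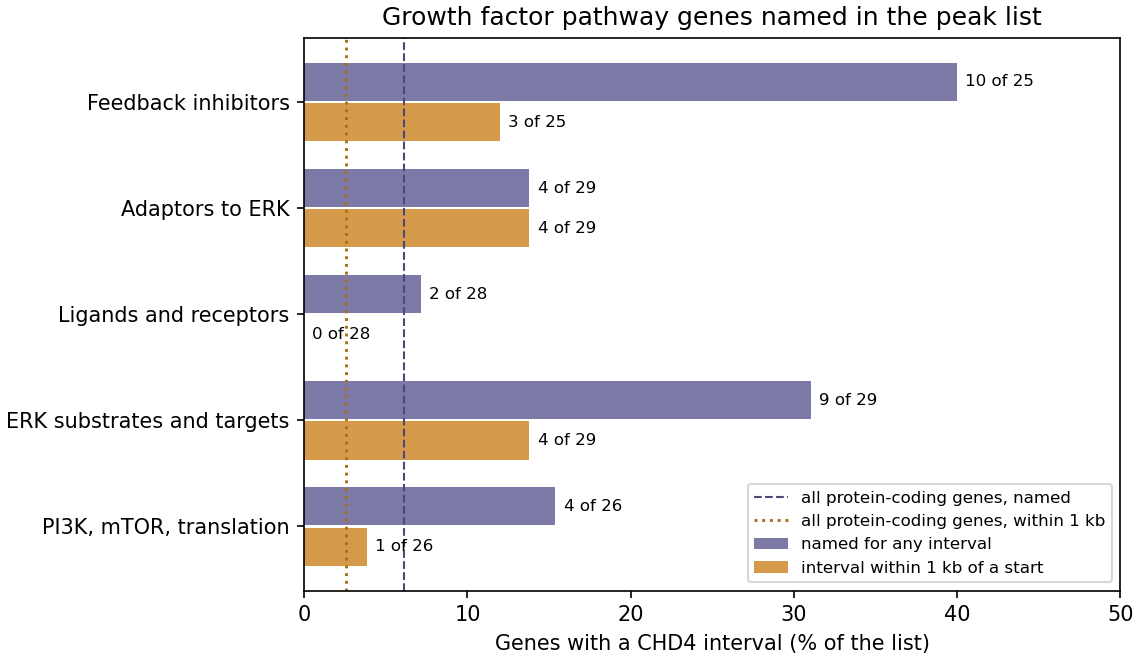
Share of each role list with a CHD4 interval, in percent of its genes in the gene table: named for any interval (upper bars) or for an interval within 1 kb of a start (lower bars), with the counts beside them. Dashed and dotted lines give the same shares of all protein-coding genes, 6.1% and 2.57%. The bars count the members, which were chosen for being named. Feedback inhibitors reach 40% and 12% with the members, and 31.8% and 4.55% without them.

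Over the 31 intervals of the 23 pathway genes that are not members, the median fold was 4.33, with a range from 3.05 to 8.96, and 8 (25.8%) lay within 1 kb of a start. The 8 member intervals, from 3.1 to 6.29, lay within that range.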

How the data were processed

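The labels describe 2 CHD4 and 2 IgG CUT&Tag samples. The submitters' processing notes name MACS2 2.1.2, Bowtie2 2.2.5 and Trim Galore 0.5.0, and the build mm10, but not how replicates were combined. The authors deposited 1 peak list holding a fold (a ratio) and its log2, both by the authors. The deposited −log10 p and −log10 q columns have lost their headers, so they were known by the caller's order, and at all 2066 summits the deposited score is the −log10 q times 10, decimals dropped. Positions, widths and annotation are the authors' own. The header row holds values of 1 more peak, left out here.

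Summits sharing an interval were joined, and the summit of highest fold gave the interval's values. Fragments were recovered on the model fold = (scaled fragments + 1)/(expectation + 1) with a Poisson p (Python 3.11.15, scipy 1.17.1), checked on simulated data. A scale of 0.429 gave whole numbers within 0.005 fragments at all 2066 summits, with a single solution at 2011, the members included. Genes came from RefSeq GRCm38.p6, without 340 that start before 3 Mb except on Y. The text names all 6 members with every interval, the pathway list genes that have one (except an item not reported here), and overlapping or neighbouring genes. Members and lists were chosen with earlier results of these data known. No test was made, since both sets were chosen on this list. Alternatives covered the q threshold, gene assignment, unit of the fold, the added 1, promoter distance and the make-up of the sets.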

Additional observations from a re-analysis of the deposited data

How the results depend on the processing

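Of 34 alternative values, 23 kept their sign and moved by less than the spread of their set or, for counts, by at most 1.5 times. That limit is wide. The difference of the median widths, inhibitors minus activators, is among the 23. It went from 101.5 bp to 232.5 bp at a q under 0.01 and to 216 bp by RefSeq span. Intervals of the members fell from 8 to 5 at a q under 0.01. They also fell to 5 when an interval was given to the RefSeq gene whose span, extended by 1 kb, it meets. Dusp1 had none in either case. By RefSeq span, the Spry4 interval was kept only through the 1 kb extension, since it overlaps Arhgap26 and not Spry4. Of the 4 intervals within 1 kb of a start, 1 contained the start. With nothing added to the ratio, the median fold was 8.01 for feedback inhibitors and 7.29 for activators, which follows from dropping the added 1. The difference of the median folds, inhibitors minus activators, was 0.371 and changed sign to −1.07 by RefSeq span, −0.0702 with 1 value per gene, −0.447 with Eif4ebp1 among the activators and −0.256 within 3 kb of a start; leaving out each gene in turn gave −0.337 to 0.748, with −0.00579 without Spry4 and −0.337 without Mapk3. The causes of these changes were not tested. The last 2 of these settings, distance and left-out genes, were chosen after seeing the data. The list holds no value per sample, so no replicate could be left out, and each member's fold rests on 17 to 41 unscaled CHD4 fragments and an IgG expectation of 0.738 to 4.98, whose own counting error was not estimated.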
